A study of Homo sapiens with 2 samples.

Results

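The genes of the mitochondrial genome are the genes on chromosome MT, the small circular DNA that mitochondria carry in many copies. They were taken as the genes whose symbol starts with MT-, which gave 15 of the 50868 genes in the count table, 13 mRNAs and 2 rRNAs, and every gene that the table places on chromosome MT is among them. None of these genes was a tRNA, so the mitochondrial tRNAs could not be analysed here. RNA sequencing was carried out on 1 resistant and 1 parental library, both labelled as HepG2, a human liver cancer line. The resistant cells had been selected with sorafenib, an inhibitor of several kinases that is used against liver cancer, from 2.5 µM upwards in steps of 0.5 µM to a final 7 µM. The treatment label is sorafenib for the resistant cells and none for the parental cells, which carry the label WT. Both were grown in DMEM with 10% fetal bovine serum at 37 °C and 5% CO2. With a single library in each group, no difference has a replicate check and none was tested between the conditions. The intervals given are 95% intervals for counting error only. Effects of the selection, of any drug present and of anything else that differed between the 2 cultures cannot be told apart.

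The mitochondrial genome encodes core subunits of the respiratory chain and of ATP synthase, and the 2 rRNAs of the mitochondrial ribosome. Its strands are called heavy and light. The RNA polymerase POLRMT, with the factors TFAM and TFB2M, copies each into a long RNA from which the tRNAs are cut out, and this frees the mRNAs and rRNAs between them. The mRNAs have no introns and most of them receive a poly(A) tail, which in several genes also completes the stop codon. Liver cells are rich in mitochondria, and cancer cells differ widely in how much they respire.

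The counts summed to 16811907 in the resistant and 18067146 in the parental library. Genes by which a hepatocyte is recognised were nearly absent: of 12 markers, 10, ALB and AFP among them, had 0 counts in both libraries, and all 12 together had 4 counts in the resistant and 3 in the parental library. Of 9 fibroblast markers 5 were measured, with COL1A2 and PDGFRA at 0 counts in both libraries, and the 9 summed to 6774 counts in the resistant and 7199 in the parental library. In scaled level 4 of the 5 were higher in the resistant library, where 50.3% of all measured genes were lower. LUM, at 216 counts in the resistant and 93 in the parental library, was the farthest (2.51-fold, 1.96 to 3.24). COL3A1, the marker with the most counts, was the lower one, at 0.896-fold (0.855 to 0.939), and COL1A1 was at 1.10-fold (1.04 to 1.16). Whether fibroblasts were present, and any part of theirs in the mitochondrial values, was not tested. All 5 blood cell markers had 0 counts in both. The cell line label was therefore kept only as a name for the libraries.

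The ends of 6 mRNAs are shown because they differ in how translation stops and include the members whose ratios lay farthest apart. Each line gives the last 15 bases of the gene, 5′ to 3′ on the coding strand, from the transcripts of GENCODE 29 (GRCh38), with the bases of the stop in capitals.
MT-ND6 (chrMT:14149-14163, minus strand): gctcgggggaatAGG
MT-ATP8 (chrMT:8558-8572, plus strand): cccccacaatccTAG
MT-ATP6 (chrMT:9193-9207, plus strand): cacgacaacacaTAA
MT-CO1 (chrMT:7431-7445, plus strand): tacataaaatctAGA
MT-CO3 (chrMT:9976-9990, plus strand): attgatgagggtctT
MT-ND1 (chrMT:4248-4262, plus strand): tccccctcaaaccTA
MT-CO3 ends on a lone T and MT-ND1 on TA, and in both the tail supplies the rest of the stop codon. Among the 13 mRNAs, 5 ended on T, 1 on TA and 7 on a full codon. The 7 with a full codon had a median log2 ratio (resistant over parental) of -0.11 (from -0.38 to -0.07), and the 6 whose stop is completed by the tail had a median of -0.08 (from -0.13 to 0.07). The ranges overlapped.

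As a group, mitochondrial genes stood slightly lower in the resistant library. They took 6.91% of its counts (Wilson interval 6.90 to 6.92), with 1161399 counts, and 7.37% of the parental counts (7.35 to 7.38), with 1330868 counts. In CPM, counts scaled to sequencing depth by the trimmed mean of M values (TMM), the sum was 0.943-fold the parental level (0.941 to 0.946). The log2 ratio, of CPM plus 1 in the resistant over CPM plus 1 in the parental library, was below 0 for 14 of the 15 genes, all but MT-ND1. It was below 0 for 50.3% of all 14686 genes measured, which are those with at least 1 CPM in either library. All 15 members had at least 100 CPM, and among the 2575 genes at that level the share below 0 was 50.9%. These genes are cut from shared precursor RNAs, so the 15 directions are not independent of each other.

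The differences were small. None of the 15 genes passed the size rule, an absolute log2 ratio of 1 or more, which 2.30% of measured genes passed. The authors' deposited table called none of the 15 up or down, against 2.29% of the 21518 genes it compared. The 15 genes have so many counts that very small differences exceed counting error. With TMM scaling, the upper bound of the counting interval lay under a fold of 1 for 13 of the 15. The same held for 32.5% of genes of at least 100 CPM. In each library 12 of the 15 were among the 50 genes with the most counts, so the 2 shares are not at like depth. The median log2 ratio of the 13 mRNAs was -0.11, beside -0.0018 for all measured genes, whose middle 50% lay between -0.15 and 0.16. Among genes of at least 100 CPM the middle 50% was narrower, from -0.11 to 0.11, so the median of the mRNAs lay at its lower edge.

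**Figure D1:**
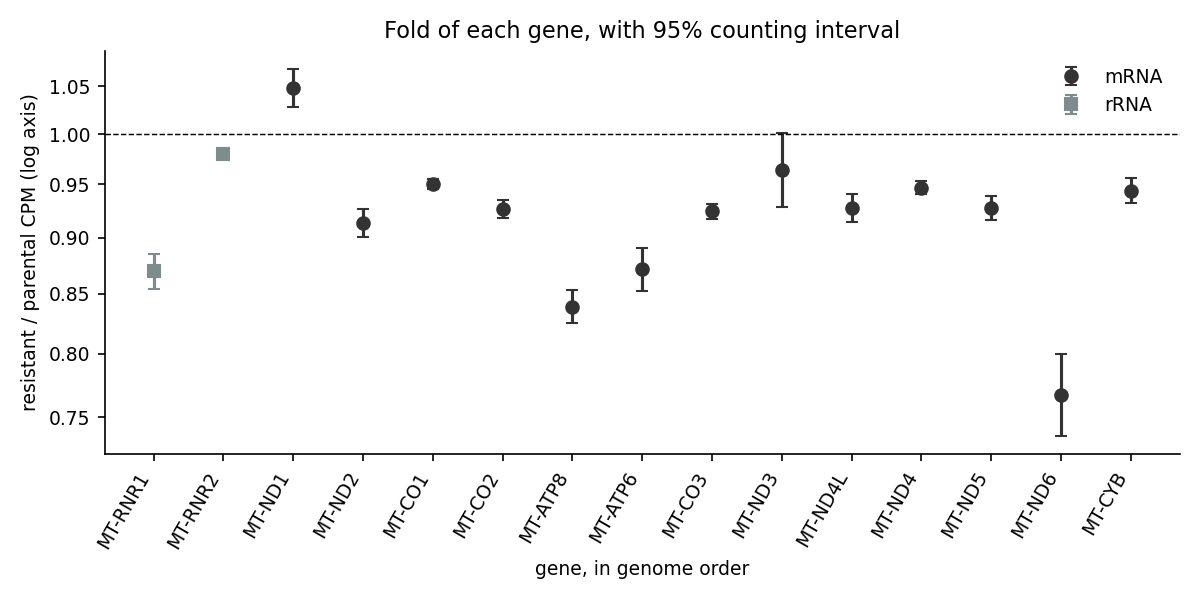
Fold of resistant over parental CPM (vertical log axis) for each mitochondrial gene in genome order, with bars for the 95% counting interval; circles are mRNAs, squares are rRNAs, and the dashed line marks equal levels. MT-ND6 was lowest at 0.767-fold, MT-ATP8 and MT-ATP6 lay at 0.839-fold and 0.872-fold, and MT-ND1 at 1.05-fold was alone above the line.

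The cytochrome c oxidase genes were the most abundant mRNAs of the genome. MT-CO1, the catalytic subunit with the heme and copper site that reduces oxygen, had 303559 counts in the resistant and 345149 in the parental library and was the gene with the most counts in each. MT-CO2, the subunit that accepts electrons from cytochrome c, had 90152 counts in the resistant and 105175 in the parental library. MT-CO3, the third core subunit, had 120878 counts in the resistant and 141332 in the parental library. All of them were lower in the resistant library, at 0.951-fold (0.946 to 0.955) for MT-CO1, 0.927-fold (0.918 to 0.935) for MT-CO2 and 0.925-fold (0.917 to 0.932) for MT-CO3. The interval of MT-CO1 did not overlap those of MT-CO2 and MT-CO3, which overlapped each other. Together the oxidase genes made up 3.06% of the resistant and 3.27% of the parental counts.

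Complex I, which takes electrons from NADH, has 7 subunits encoded here, and they differed more among themselves. MT-ND1 (chromosome MT, 3307 to 4262, plus strand), a membrane subunit beside the quinone channel, had 20458 counts in the resistant and 21105 in the parental library. After scaling for depth it was the 1 member above the parental level, at 1.05-fold (1.03 to 1.07). MT-ND6 (chromosome MT, 14149 to 14673, minus strand) had 3880 counts in the resistant and 5467 in the parental library and lay at 0.767-fold (0.736 to 0.7995), the lowest fold of any member. Its log2 ratio of -0.38 was also low among nuclear genes, since 8.83% of all measured genes and 4.39% of those of at least 100 CPM had a ratio at or below it.

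The proton-pumping membrane subunits lay between these extremes. MT-ND2 had 35579 counts in the resistant and 42105 in the parental library, at 0.913-fold (0.901 to 0.926). MT-ND4 had 166810 counts in the resistant and 190431 in the parental library, at 0.947-fold (0.941 to 0.953). MT-ND5 had 48404 counts in the resistant and 56412 in the parental library, at 0.928-fold (0.916 to 0.939). The small subunit MT-ND4L, whose reading frame runs into that of MT-ND4, had 36249 counts in the resistant and 42247 in the parental library, at 0.927-fold (0.915 to 0.941). MT-ND3, the other small subunit, had 5292 counts in the resistant and 5934 in the parental library. With TMM scaling its interval was the only one to include equal levels (0.964-fold, 0.929 to 1.0006). The upper bound is so near 1 that this depends on the scaling. The log2 ratio of MT-ND3 was -0.053 with TMM and -0.061 with total counts.

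MT-CYB, the cytochrome b of complex III, had 44383 counts in the resistant and 50832 in the parental library, at 0.944-fold (0.932 to 0.956). It is the only subunit of its complex encoded here, and its fold was close to that of the summed mRNAs, 0.937-fold (0.934 to 0.939).

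The ATP synthase genes were lower than the other heavy-strand mRNAs. MT-ATP8, a small subunit of the membrane part of the enzyme, had 24185 counts in the resistant and 31155 in the parental library, at 0.839-fold (0.825 to 0.853). MT-ATP6, the subunit through which protons pass, had 14671 counts in the resistant and 18193 in the parental library, at 0.872-fold (0.853 to 0.891). As a sum they stood at 0.851-fold (0.840 to 0.863), below complexes I (0.941-fold, 0.937 to 0.946), III and IV (0.940-fold, 0.937 to 0.944). Both are read from 1 shared mRNA, so they do not count as separate observations.

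The 2 rRNAs had unlike ratios. MT-RNR1, the RNA of the small ribosomal subunit, had 21918 counts in the resistant and 27241 in the parental library, at 0.870-fold (0.854 to 0.885). MT-RNR2, the RNA of the large subunit, had 224981 counts in the resistant and 248090 in the parental library, at 0.980-fold (0.975 to 0.986). MT-RNR2 was the gene with the second most counts in both libraries. Together the rRNAs took 1.47% of resistant and 1.52% of parental counts. Relative to the mitochondrial mRNAs the direction was the other way, with 270.0 rRNA counts per 1000 mRNA counts in the resistant and 260.8 in the parental library.

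Per unit of length, the mRNA levels spanned more than an order of magnitude within each library. These levels are in FPKM, counts scaled to gene length and library total, as deposited. MT-CO1 was highest, at 11710 FPKM in the resistant and 12389 in the parental library, and MT-ND6 lowest, at 439.6 in the resistant and 576.4 in the parental library. The ratio of the highest to the lowest was 26.6 in the resistant and 21.5 in the parental library. After MT-CO1, the resistant library held MT-CO3 (9171 FPKM), MT-CO2 (7840), MT-ND4L (7260), MT-ND4 (7200) and MT-ATP8 (6950), and then, after a wide gap, MT-CYB (2314), MT-ND2 (2031), MT-ND5 (1589), MT-ATP6 (1281), MT-ND1 (1273) and MT-ND3 (909.8). In the parental library 10 of the 13 mRNAs held the same rank. The exceptions were MT-ATP8, at rank 6 in the resistant and 4 in the parental library, and MT-ND4L and MT-ND4, at ranks 4 and 5 in the resistant and 5 and 6 in the parental library. Their FPKM lay close together, and without replicates the order of such neighbours is not established.

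**Figure D2:**
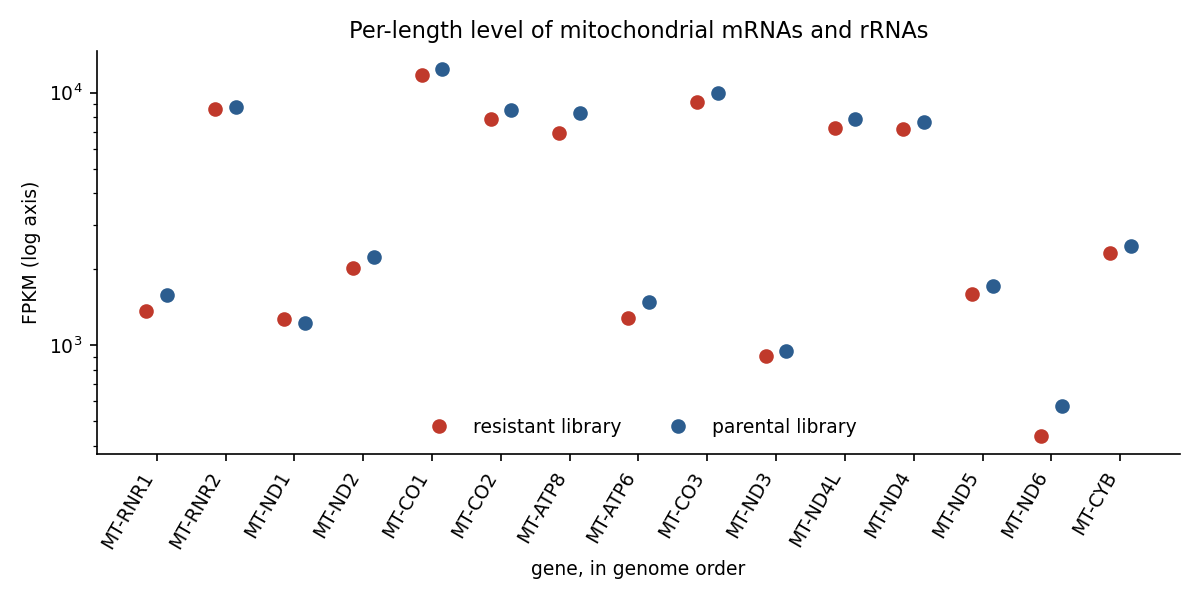
Level of each mitochondrial gene in FPKM (vertical log axis), in genome order, with the resistant library in red left of the parental library in blue; each point is 1 library. Levels separate into a high group from 6950 FPKM upwards in the resistant library and a low group at 2314 FPKM and under, and the parental library shows the same division.

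Genes that are read from 1 mRNA need not have equal counts per length. The overlap of each such pair is shown because a read from it belongs to both genes. In each line the shared bases are in capitals, with 15 flanking bases on each side, from GENCODE 29 transcripts on the plus strand.
MT-ATP8 and MT-ATP6 (chrMT:8512-8587): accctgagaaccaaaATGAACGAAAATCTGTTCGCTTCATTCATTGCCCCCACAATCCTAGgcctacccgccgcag
MT-ND4L and MT-ND4 (chrMT:10745-10781): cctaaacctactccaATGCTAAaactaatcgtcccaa
The first pair shares 46 bases, from the start codon of MT-ATP6 to the stop codon of MT-ATP8, and the second pair 7. MT-ND4L and MT-ND4 had nearly the same level, with a ratio of their FPKM of 1.01 in the resistant and 1.03 in the parental library. MT-ATP8, in contrast, had 5.42 times the FPKM of MT-ATP6 in the resistant and 5.63 times in the parental library. How reads in an overlap were assigned is not given.

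MT-ATP6 also has a near-identical copy in the nuclear genome that received many counts. Pieces of mitochondrial DNA lie in nuclear chromosomes as pseudogenes, and a read that matches both places can be counted at either or at neither. The copy of MT-ATP6 on chromosome 1, MTATP6P1, matches it at 671 of 681 bases (98.5%), and the longest identical stretch is 141 bases. These are reference sequences, and the mitochondrial DNA sequence of the cells used was not examined. A window of 100 bases with 4 of the 10 differences, in capitals, shows how few positions tell the reference sequences apart (GENCODE 29, plus strand of both).
MT-ATP6 (chrMT:8636-8735): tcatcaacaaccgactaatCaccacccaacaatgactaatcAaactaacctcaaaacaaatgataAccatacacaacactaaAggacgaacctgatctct
MTATP6P1 (chr1:633805-633904): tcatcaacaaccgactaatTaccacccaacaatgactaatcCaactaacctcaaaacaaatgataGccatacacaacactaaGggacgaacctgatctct
MTATP6P1 had 11706 counts in the resistant and 14751 in the parental library, which was 44.4% of the counts of gene and copy together in the resistant and 44.8% in the parental library. Its fold, 0.858 (0.837 to 0.879), was close to that of MT-ATP6. Added to MT-ATP6, it left MT-ATP8 at 3.02 times the FPKM of the sum in the resistant and 3.11 times in the parental library, so the gap within the pair became smaller and did not close.

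Of 380 nuclear copies recognised by symbol, 42 had a count in either library. All 380 summed to 20841 counts in the resistant and 25362 in the parental library, at 0.888-fold (0.872 to 0.905). The 6 copies with the most counts held 99.2% of that sum in the resistant and 99.3% in the parental library. After MTATP6P1 came MTND2P28, a copy of MT-ND2 with 6137 counts in the resistant and 7215 in the parental library. It took 14.7% of the counts of MT-ND2 and itself in the resistant and 14.6% in the parental library. MTCO1P12 had 1947 counts in the resistant and 2266 in the parental library, MTND4P12 had 772 in the resistant and 817 in the parental library, and MTRNR2L12 had 70 in the resistant and 89 in the parental library. MTND5P11 had 47 counts in the resistant and 46 in the parental library.

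High identity alone did not go with high counts of a copy. Among the 7 copies in the block on chromosome 1, identity to the mitochondrial gene ranged from 97.6% to 98.7%, yet MTCO2P12, MTATP8P1 and MTCO3P12 had at most 4 counts in the resistant and 6 in the parental library, and MTND1P23 had 0 in both. The 5 copies in the block on chromosome 5 were 91.8% to 95.7% identical. The values of MT-ATP6 and MT-ND2 are uncertain to the extent of these shares, and whether further reads went uncounted because they match several places was not tested.

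**Figure D3:**
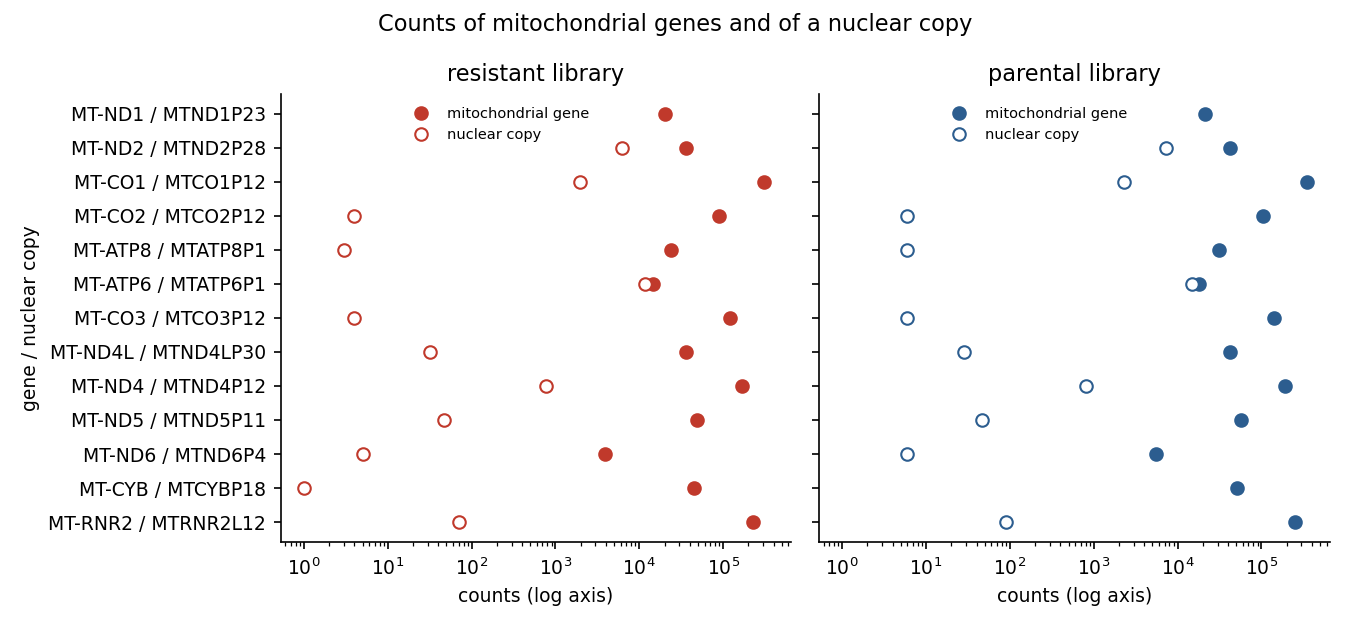
Counts (horizontal log axis) of 13 mitochondrial genes, filled, and of 1 nuclear copy of each, open, in the resistant library on the left and the parental library on the right; copies with 0 counts are not drawn. In both libraries MTATP6P1 lies just under MT-ATP6, whereas most other copies lie far below their gene.

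MT-ND6 is the only mRNA of the genome that lies on the minus strand of the reference and is cut from the light-strand precursor. Relative to the 12 heavy-strand mRNAs it had 4.26 counts per 1000 in the resistant and 5.21 in the parental library. The heavy-strand mRNAs summed to 0.937-fold (0.935 to 0.940), against 0.767-fold for MT-ND6. Its sequence has the base make-up of the opposite strand, with 35.6% G and 7.05% C, where the 12 heavy-strand mRNAs, such as MT-ND5 with 10.6% G and 34.3% C, have more C than G. Whether strand was used in counting is not given, so RNA copied from the other strand of the same stretch cannot be told apart from it. Human MT-ND6 mRNA is known to carry little or no poly(A) tail, and the libraries were made from separated mRNA.

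Few counts fell on RNAs of nuclear origin without a tail, and only 2 of their 9 rows were measured. The 7 symbols of that kind that were found held 159 counts in the resistant and 68 in the parental library. RN7SL2, an RNA of the signal recognition particle, had 85 counts in the resistant and 28 in the parental library, at 3.28-fold (2.12 to 5.23). The near-identical RN7SL1 had 41 in the resistant and 16 in the parental library, at 2.77-fold (1.52 to 5.29). Both measured rows were thus higher in the resistant library. RN7SL2 passed the size rule, as did 2.30% of all measured genes. RPPH1, the RNA of ribonuclease P, had 13 counts in the resistant and 9 in the parental library. RMRP had 15 in the resistant and 2 in the parental library, and SNORD3A 5 in the resistant and 13 in the parental library. TERC and SCARNA2 had 0 counts in both. The part of tail length or RNA capture in the mitochondrial values was not tested.

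Neither position nor base content ordered the ratios strongly. Over the 15 genes, which share 2 libraries and are not independent, Pearson's r with the log2 ratio was 0.40 for the share of G and C, 0.41 for gene length and -0.33 for position along the chromosome. Over the 14 heavy-strand genes r with position was -0.09. By ranks (Spearman's rho), gene length had the highest correlation, 0.51 over the 15 genes and 0.49 over the 14 heavy-strand genes. The genes nearest the start of heavy-strand transcription, MT-RNR1, MT-RNR2 and MT-ND1, had folds of 0.870, 0.980 and 1.05, and all 14 heavy-strand genes ranged from 0.839 to 1.05.

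The nuclear genes that serve the mitochondrial genome showed no common direction. The counts of each list are to be read beside all measured genes, of which 50.3% were below 0 and 2.30% passed the size rule. At these shares, few or none past the rule in a short list is not a result about that list. Of 9 genes of transcription, all measured, 4 were above and 5 below 0, with a median log2 ratio of -0.09 and none past the size rule. POLRMT had 1408 counts in the resistant and 1719 in the parental library, at 0.885-fold (0.825 to 0.951). TFAM, which bends and packs the DNA, had 1790 counts in the resistant and 1822 in the parental library, at 1.06-fold (0.994 to 1.13), and TFB2M, which opens the promoter, had 620 in the resistant and 670 in the parental library, at 1.0003-fold (0.895 to 1.12). The elongation factor gene TEFM was at 0.877-fold (0.743 to 1.04) and MRPL12, which encodes a ribosomal protein that also binds POLRMT, at 0.798-fold (0.746 to 0.853). The largest ratio was that of MTERF4, which encodes a factor of mitochondrial ribosome assembly, at 1.89-fold (1.60 to 2.25), with 382 counts in the resistant and 218 in the parental library. MTERF1, the gene of a transcription termination factor, was at 1.27-fold (1.02 to 1.60).

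Genes of replication and upkeep of the DNA, which set the number of templates, were balanced as well. Of 18 measured, 10 were above and 8 below 0, with a median of 0.04 and none past the size rule. With a filter of 10 CPM that median was 0.0063. TK2, the thymidine kinase of the mitochondrion, was at 1.22-fold (1.09 to 1.36) and POLG2, the accessory subunit of the DNA polymerase, at 1.21-fold (1.02 to 1.44). DNA2 was at 0.805-fold (0.719 to 0.901) and the ligase gene LIG3 at 0.816-fold (0.751 to 0.886). The number of mitochondrial DNA copies was not measured.

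Genes that process, modify or stabilise mitochondrial RNA had a median of 0.0090 over 40 measured members, 21 above and 19 below 0. LRPPRC and SLIRP, whose proteins form the complex that protects the mRNAs, were at 1.02-fold (0.981 to 1.05) and 1.06-fold (0.925 to 1.22). GRSF1, the gene of an RNA granule protein that binds MT-ND6 and other transcripts, had 1595 counts in the resistant and 2445 in the parental library, at 0.705-fold (0.662 to 0.751). NSUN4, which encodes a methyltransferase of the rRNA that MT-RNR1 specifies, had 309 counts in the resistant and 719 in the parental library. At 0.465-fold (0.405 to 0.532) it passed the size rule. MRM2, the gene of a methyltransferase of the large rRNA, was at 1.65-fold (1.46 to 1.86). PTCD1, at 2.56-fold (2.21 to 2.98), also passed it, but it shares exons with ATP5MF and with the read-through gene ATP5MF-PTCD1, and the counts of these genes together had a log2 ratio of -0.03. In all, 2 of the 40 were past the size rule. Only genes past the rule were summed with genes that share their exons. NSUN4, which had no such partner, stayed past it and PTCD1 did not.

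Translation factors of the mitochondrion had a median of 0.07, with 10 of 16 above 0. C12orf65, which encodes a factor that rescues stalled mitochondrial ribosomes, had 458 counts in the resistant and 220 in the parental library. At 2.25-fold (1.91 to 2.66) it was the 1 of 16 members past the size rule, which 2.30% of all measured genes passed. TSFM, the gene of elongation factor Ts, was at 1.43-fold (1.28 to 1.61). RMND1, also of the translation list, was at 1.15-fold (0.994 to 1.33) and GFM2, a gene of ribosome recycling, at 0.866-fold (0.793 to 0.945).

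Of the regulators that drive mitochondrial gene programmes, 9 of 10 were measured and 5 were above 0, with a median of 0.07 and none past the size rule. With no filter, and also with one of 10 CPM, that median was 0.03. ESRRA, a nuclear receptor that activates respiratory genes, had 937 counts in the resistant and 638 in the parental library, at 1.59-fold (1.43 to 1.76). PPARGC1A, the coactivator known as PGC-1 alpha, was at 0.867-fold (0.778 to 0.967) and its relative PPARGC1B at 1.21-fold (1.01 to 1.45). PPARA, the receptor of fatty acid oxidation, was at 1.56-fold (1.22 to 2.01). Mitochondrial chaperones and proteases had a median of 0.07, with 11 of 14 above 0 and none past the size rule. DNAJA3 and TRAP1, both chaperone genes, were at 1.19-fold (1.12 to 1.27 and 1.14 to 1.24), HSPE1 at 1.10-fold (1.01 to 1.20) and the protease gene HTRA2 at 0.897-fold (0.813 to 0.991).

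The nuclear subunits of the respiratory chain, complex II included, were evenly divided. Of 78 measured, 39 were above and 39 below 0, with a median log2 ratio of -0.0002 and none past the size rule. By complex, their median was 0.0015 for complex I (37 genes), -0.03 for complex III (9), -0.04 for complex IV (11) and -0.0077 for ATP synthase (17). For complex II (4) it was 0.11, with 3 genes above and 1 below 0. The median of the mitochondrial subunits was -0.11 for complex I (7 genes), -0.11 for complex IV (3) and -0.23 for ATP synthase (2), and MT-CYB, alone in complex III, had a ratio of -0.08. The nuclear subunits with the largest ratios in each direction were these. ATP5F1A, the alpha subunit of ATP synthase, had 5190 counts in the resistant and 8981 in the parental library, at 0.625-fold (0.604 to 0.646), and NDUFA13 was at 0.658-fold (0.585 to 0.740). UQCR10 was at 1.40-fold (1.26 to 1.55) and UQCRB at 1.39-fold (1.31 to 1.47). The difference between the mitochondrial and the nuclear subunits was not tested.

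**Figure D4:**
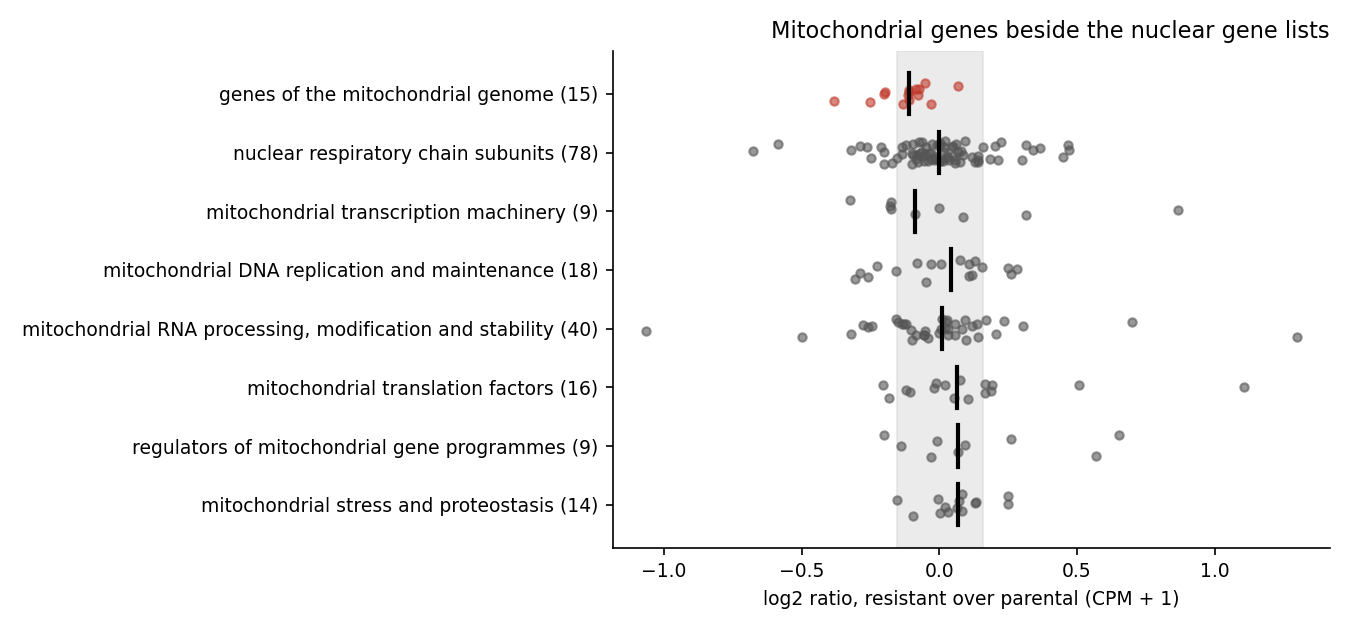
Log2 ratio of resistant over parental CPM plus 1 for each mitochondrial gene, in red, and for the measured members of nuclear gene lists, in grey; the number of genes is in brackets, black bars are medians, and the grey band holds the middle 50% of all measured genes. The mitochondrial genes lie between -0.38 and 0.07, with 14 of 15 below 0 and their median at -0.11.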

How the data were processed

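The authors deposited raw counts for each gene in whole numbers, per the file headers, and FPKM, which by a check equals the count divided by gene length and total count for all 15 members. The submitters' processing notes name bcl2fastq 2.19, HISAT2 2.0.4, StringTie 1.3.0 and build GRCh38. The authors' deposited table gives log2 fold changes with p-values and q-values by an unstated test, and only its calls were used.

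Counts were scaled to CPM with TMM factors from edgeR 4.0.16 (R 4.3.3), 0.997 for the resistant and 1.003 for the parental library, with no model. Log2 ratios used a pseudocount of 1 CPM. Folds are CPM ratios without it, with Clopper-Pearson intervals (exact, given the sum of both counts). Intervals cover counting error only, and PCR copies are not independent. The calculation was tested on simulated counts with counting error only, which does not cover variation between cultures. There, recovery by the size rule was required at 10 CPM or more, as the pseudocount keeps some genes near 1 CPM within the rule.

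Described by rule were all members, up to 4 measured members of each list with the largest absolute log2 ratio and a few fixed regulators, and the 6 nuclear copies with the most counts. The other copies on chromosomes 1 and 5, the RNAs without a tail and the marker genes were named after their values were seen. Members and lists were chosen with earlier results of these data known. Of the listed symbols, MTRFR, RN7SK, RNU4ATAC and RNU6ATAC had no match, and C12orf65 was listed beside MTRFR, its newer symbol. All 15 members had the same coordinates in GENCODE 29, and alignments were made with Biopython 1.88.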

Additional observations from a re-analysis of the deposited data

How the results depend on the processing

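No paired analysis was possible because each group has 1 library, and leaving out a library was not possible either. With DESeq2 size factors, total counts, the total of genes outside the mitochondrial genome, deposited FPKM, a pseudocount of 0.5 CPM or nuclear copies summed, the 15 log2 ratios moved by at most 0.02 and none changed sign. Of the 90 log2 ratios obtained in this way, 15 moved by more than the counting error of their gene. MT-RNR2, for example, went from -0.029 to -0.046 with DESeq2 size factors. The intervals given do not include this dependence on scaling. The median of the mRNAs stayed between -0.13 and -0.09, the mean and the ratio of sums included. Under these settings, and with no filter or one of 10 CPM, 14 genes were below 0 and none was past the size rule.

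Without the rRNA genes, the mitochondrial share differed by -0.403 percentage points, resistant minus parental, in place of -0.458. With mitochondrial counts as the total, the log2 ratio of the rRNA share was 0.0393, in place of -0.0534, and that of the mRNA share was -0.0104, in place of -0.103. The per-length ratio of MT-ATP8 to MT-ATP6 was 3.02 with copies summed. With DESeq2 size factors the medians were 0.02 for the replication list and -0.02 for the nuclear subunits. The median of the RNA processing list turned to -0.0082 with DESeq2 size factors and -0.0061 with the total of genes outside the mitochondrial genome. With FPKM, 1 gene of that list and 0 translation factors were past the size rule. The member with the fewest counts, MT-ND6, had 3880 in the resistant and 5467 in the parental library, so depth limits little, and the missing replicates limit every comparison.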
